A study of Mus musculus with 15 samples.

Results

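The clusters described here are places where HITS-CLIP tags of an antibody against Mbnl3 gathered in C2C12 myoblasts, with hardly any tag in embryonic forelimb. The samples include no C2C12 control without Mbnl3 or without the antibody. Whether each cluster comes from Mbnl3 was therefore not tested. C2C12 tags that overlapped by at least 1 nt on a strand were merged, and a cluster was kept with at least 10 tags. Of 2015 such clusters, 837 were overlapped on their strand by fewer than 3 tags of the 6 forelimb libraries together, which is 41.5% (95% Wilson interval 39.4 to 43.7%). They are called C2C12-only clusters below, a name for the rule and not a statement that forelimb RNA is unbound there. The clusters were chosen by the tag counts of both materials, so those counts are given as a description with no test.

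Muscleblind proteins are zinc finger proteins that bind RNA at short motifs with a GC core, and they regulate alternative splicing in the nucleus and the localization and stability of messenger RNA in the cytoplasm. Mbnl3 is the member of the family found mainly in embryonic tissue, placenta and regenerating muscle, and in cultured myoblasts it is known as an inhibitor of differentiation. C2C12 is an established mouse line of myoblasts, which proliferate in serum and fuse into myotubes when serum is withdrawn. In HITS-CLIP, ultraviolet light links protein to the RNA it touches, the complexes are trimmed with RNase and precipitated with an antibody, and the RNA fragments that remain are sequenced as short tags.

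The study holds 15 samples in 5 groups of 3, of which the 9 HITS-CLIP samples are used here beside the authors' table of cassette exons from forelimb RNA-seq. C2C12 cells, of WT genotype by their label, were kept in DMEM with 20% FBS, and 5 plates of 10 cm made up a replicate. Forelimbs came from BL6 mouse embryos at day 15, WT or homozygous for the Mbnl3 ΔE2 allele, and a replicate pooled 4 forelimbs of 2 embryos. Titles of the ΔE2 samples read Mbnl3 KO. All material was precipitated with 5 µg of the antibody Mb3/7 against Mbnl3 after RNase A at 55 and 0.55 U/ml. The line is a single cell type in culture, whereas a forelimb holds cartilage, connective tissue, vessels and skin beside muscle. The amount of each RNA in C2C12 cells was not measured, so less of an RNA in forelimb and less binding to it cannot be told apart.

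The C2C12 libraries were deposited as 1 combined list, which held 677787 tags, or 550124 molecules once tags of the same position, strand and 5-base barcode were counted once. The list falls into 3 consecutive runs of 420336, 163914 and 93537 tags, each with a display colour of its own. There are 3 C2C12 samples in the labels, but nothing ties a run to a sample, so runs are described and not used as replicates. They are not independent either, since 21.9%, 56.3% and 62.9% of their molecules occurred in another run too. The forelimb libraries held 35413 to 124309 tags and 400770 in all. ΔE2 replicates 2 and 3 shared 33916 molecules, 83.7% and 57.4% of their tags, and were counted as 1 library wherever genotypes were compared. WT replicates 2 and 3 shared 32.4% and 19.3% of theirs. Tag length ran from 26 to 30 nt in C2C12 and from 19 to 38 nt in forelimb, so the deposited tags of the materials differ in their length limits. No genome or annotation of the mm9 build was used here, so no sequence, motif or gene is given for a cluster, apart from the clusters that fall in an event of the authors' table.

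Of the 837 C2C12-only clusters, 503 had 0 forelimb tags, 182 had 1 and 152 had 2. Their 12472 C2C12 tags were 22671 per 1000000 of all C2C12 molecules. A cluster of 10 tags stands at 18.2 per 1000000 in C2C12, while 0 forelimb tags allow up to 7.49 per 1000000. For 2 forelimb tags the value as counted is 4.99 per 1000000. Its upper limit was not worked out and lies above that for 0 tags, so the smallest clusters differ least clearly from forelimb. At equal density, 10 C2C12 tags would be matched by 7.29 forelimb tags. These limits cover counting error only. Most of the clusters were small: the median was 13 tags, with quartiles at 11 and 16 and the largest at 81. The other 1178 clusters had a median of 16 tags and reached 1540.

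The share of clusters that met the rule fell with cluster size. It was 53.3% (547 of 1027) among clusters of 10 to 14 C2C12 tags, 40.6% (162 of 399) at 15 to 19 tags and 34.1% (89 of 261) at 20 to 29 tags. Of clusters with 30 to 49 tags it was 18.7% (35 of 187), and of those with 50 or more 2.84% (4 of 141). A fixed limit of 3 forelimb tags is easier to meet for a small cluster than for a large one, so this gradient is partly set by the rule. Clusters with few tags therefore make up most of the C2C12-only set, and the well-covered ones that follow carry the clearest difference in depth.

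**Figure D1:**
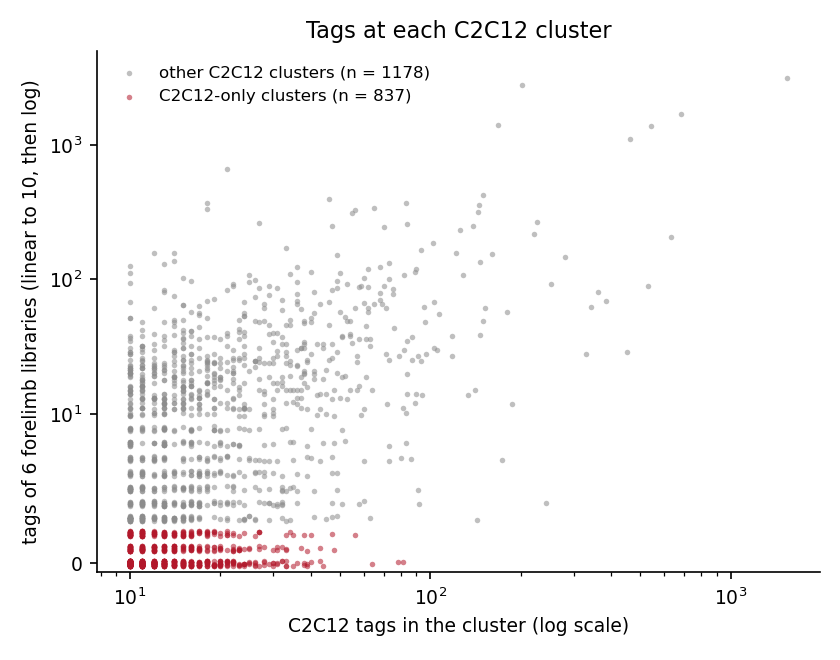
Each point is 1 of the 2015 C2C12 clusters, with its C2C12 tags on the horizontal log axis and the tags of the 6 forelimb libraries together on the vertical axis, which is linear to 10 and logarithmic above; points are spread slightly so that they can be seen, and C2C12-only clusters (red) lie below 3 forelimb tags. The C2C12-only clusters crowd at 10 to 20 C2C12 tags, and 4 of them reach 50.

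The C2C12-only cluster with the most tags lay on chromosome 3 (mm9, 90409676 to 90409964, plus strand, 289 nt wide). It held 81 C2C12 tags, or 147 per 1000000, with 60, 38 and 24 in the runs, where a molecule found in several runs is counted in each. No forelimb library had a tag in it, and none of the forelimb tags lay within 1000 nt on its strand, against 27 further C2C12 tags. The cluster next in size, on chromosome 18 (16433030 to 16433214, minus strand, 185 nt), had 78 tags, with 62, 30 and 17 in the runs. It too had 0 forelimb tags in each library and 0 within 1000 nt, against 19 of C2C12. At both places the C2C12 signal was spread over more than 100 nt and was present in every run, while forelimb had nothing at the depth available.

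Other broad clusters of high coverage showed the same kind of contrast. On chromosome 17 (24301065 to 24301270, minus strand) 43 C2C12 tags, 28, 20 and 5 by run, stood against 0 forelimb tags, and within 1000 nt another 60 C2C12 tags stood against 0. On chromosome 15 (78760425 to 78760631, plus strand) there were 48 C2C12 tags, 34, 20 and 14 by run, and 1 forelimb tag, from ΔE2 replicate 1. On chromosome 2 (13495944 to 13496217, plus strand) 43 tags, 35, 14 and 3 by run, stood against 1 tag from ΔE2 replicate 2. The flanks of these last clusters were also poor in forelimb tags, with 5 against 51 C2C12 tags at the chromosome 15 cluster and 6 against 62 at the chromosome 2 cluster. A cluster of 44 tags on chromosome 1 (195459074 to 195459131, plus strand, 58 nt) had 0 forelimb tags, with 2 forelimb and 7 C2C12 tags around it.

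Several of the largest clusters stood in surroundings that did hold forelimb tags. The cluster on chromosome 13 (45173940 to 45174267, minus strand) had 56 C2C12 tags and 2 forelimb tags, 1 from WT replicate 3 and 1 from ΔE2 replicate 3, yet 49 forelimb tags lay within 1000 nt against 74 of C2C12. On chromosome 11 (69547812 to 69548162, minus strand) 47 C2C12 tags stood against 2, from WT replicate 2 and ΔE2 replicate 3, with 87 forelimb and 194 C2C12 tags nearby. On chromosome 4 (59233385 to 59233506, plus strand) 38 tags stood against 2, and the flanks held 26 and 116. Forelimb tags were therefore present beside these clusters on the same strand, though fewer than those of C2C12 in raw counts. The forelimb libraries held 0.729 tags per C2C12 tag, so raw counts overstate the shortfall. At the chromosome 13 cluster the flanks were not far from equal density. The cluster of 39 tags on chromosome 10 (119799944 to 119800092, minus strand) had 1 forelimb tag, from WT replicate 2, with 17 forelimb and 95 C2C12 tags around it. That of 40 tags on chromosome 3 (95126825 to 95127190, plus strand) had 2 forelimb tags, both from WT replicate 2, and only 1 more within 1000 nt.

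The remaining 4 of the 15 largest were 40 nt wide or less, hardly more than a single tag. These lay on chromosome 11 (30470670 to 30470704, minus strand, 64 tags), chromosome 15 (37753216 to 37753252, minus strand, 40 tags), chromosome 1 (173340843 to 173340876, plus strand, 39 tags) and chromosome 18 (20875853 to 20875891, plus strand, 39 tags). None of them had a forelimb tag, and the last 3 had no tag of either material within 1000 nt on the strand. Their tags lay at 13, 14, 9 and 16 distinct positions (start and end) in that order, so many shared a position and differed in barcode only. The 81 tags of the largest cluster lay at 70 positions. They form a class of their own, described below. Among all 15, 8 had 0 forelimb tags and 15 had tags in all 3 runs.

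**Figure D2:**
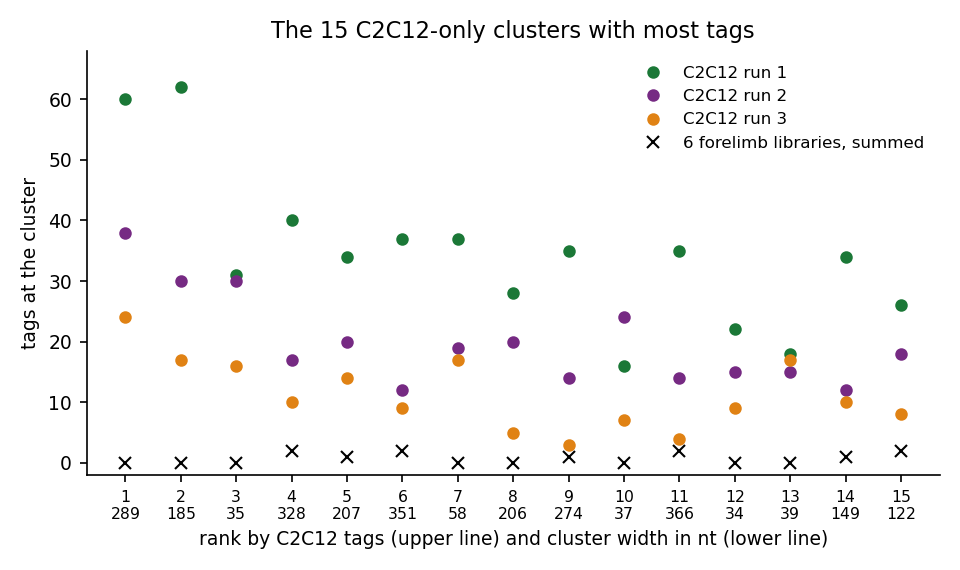
Tags (vertical axis) of the 15 largest C2C12-only clusters, ordered by C2C12 tags with the width of each in nt below its rank: points are the 3 C2C12 runs and crosses the 6 forelimb libraries together. Forelimb counts are 0 to 2 at every cluster by the rule, while run 1, the largest run, has the most C2C12 tags in 14 of the 15 and run 2 in the other.

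At the limit of the rule, the clusters at chromosomes 13, 11 and 3 with 56, 47 and 40 C2C12 tags had the most tags of those with 2 forelimb tags. Just outside it, with 3 forelimb tags, the largest lay on chromosome 10 (95540158 to 95540446, minus strand, 143 C2C12 tags), chromosome 1 (72906707 to 72907254, minus strand, 63) and chromosome 4 (78419872 to 78420047, plus strand, 49). The first of these held 95, 77 and 38 tags by run against its 3 forelimb tags. There were 129 clusters with 3 forelimb tags, 104 with 4 and 80 with 5, so the limit does not fall in a gap of the distribution.

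Forelimb tags outside a cluster were not used by the rule for that cluster. Those that overlap a neighbouring C2C12 cluster were, however, used to class that neighbour. A cluster that forelimb shared lay within 1000 nt of 36.6% of the C2C12-only clusters and of 57.6% of the others. The flank shares and medians below are therefore partly set by the rule. Forelimb tags of the flanks are counted over WT and ΔE2 libraries together, and whether the ΔE2 tags come from Mbnl3 was not tested. Of the 837 clusters, 608 (72.6%, 95% Wilson interval 69.5 to 75.6%) had a forelimb tag within 1000 nt on the same strand that did not overlap them. On the opposite strand the share was 4.54% (38 clusters), so the nearby tags followed the strand of the cluster. Within 100 nt the share was 39.1%, and within 10000 nt it was 86.0%. Of the other C2C12 clusters, 93.5% had a forelimb tag within 1000 nt and 5.52% had one on the opposite strand. Among clusters of 10 to 14 C2C12 tags alone, the shares were 72.0% of the C2C12-only clusters and 93.8% of the rest, a gap of similar width at matched cluster size. Clusters close to each other share the same neighbouring tags and are not independent, so no p-value is given for these shares. The interval does not allow for this and covers counting error only.

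The forelimb flanks were sparse compared with the C2C12 flanks. The median C2C12-only cluster had 5 forelimb tags within 1000 nt, with a range of 0 to 2074, and 40 further C2C12 tags. The median of the other clusters was 28 forelimb and 58 C2C12 tags. More forelimb than C2C12 tags in the flanks were seen at 50 C2C12-only clusters (5.97%) and at 272 of the others (23.1%). Thus most C2C12-only clusters lay in RNA where the C2C12 tags outnumbered forelimb tags over the whole neighbourhood, and not at the cluster alone. These are raw counts, not scaled for the larger total of C2C12.

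The lower share of forelimb tags extended away from the clusters. In the bin from 200 to 300 nt downstream of the cluster centre, 20.2% of C2C12-only clusters had a forelimb tag, against 46.9% of the others, and in the matching bin upstream 17.6% against 47.7%. In the bin that starts 2000 nt upstream the shares were 7.89% and 13.2%. The central bins hold the up to 2 overlapping tags that the rule allows, so their height, 29.6% and 26.8% on either side of the centre, says nothing beyond the rule.

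**Figure D3:**
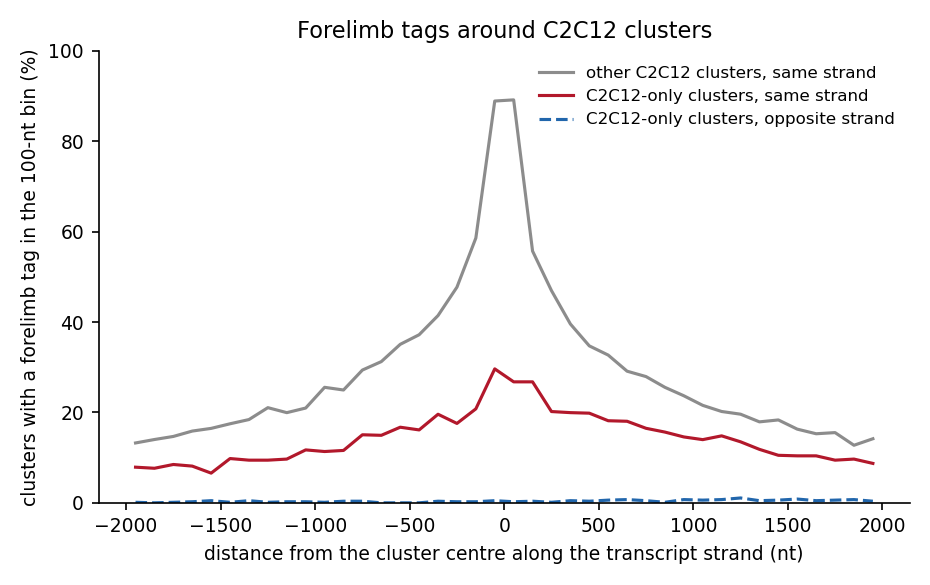
Share of clusters (percent, vertical axis) with a forelimb tag in each 100-nt bin, by distance from the cluster centre along the strand (nt, horizontal axis), for other C2C12 clusters and C2C12-only clusters on the same strand, and for C2C12-only clusters on the opposite strand (dashed). From 200 to 300 nt downstream the shares are 20.2% for C2C12-only and 46.9% for other clusters. The rule bears on the central bins, and on further bins where a neighbouring C2C12 cluster lies. Tags on the opposite strand stay near 0.

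A minority of the clusters had neighbours that were dense in forelimb. At least 10 forelimb tags lay within 1000 nt of 327 clusters (39.1%), against 867 (73.6%) of the other C2C12 clusters. At 80 of the 327 the flanks were as dense in forelimb as in C2C12 relative to all tags. That last count was not made for the other clusters. At least 100 forelimb tags lay near 36 clusters (4.30%), against 210 (17.8%) of the others. The examples that follow were chosen after their values were seen. On chromosome 3 (5860338 to 5860405, plus strand) a cluster of 35 C2C12 tags, 30, 19 and 8 by run, had 0 forelimb tags, with 1409 forelimb and 169 C2C12 tags within 1000 nt and none of forelimb within 100 nt. On chromosome 6 (124864394 to 124864486, minus strand) 30 C2C12 tags stood against 0 of forelimb, with 267 forelimb and 263 C2C12 tags in the flanks. In these examples forelimb tags outnumbered C2C12 tags in the neighbourhood, although C2C12 had more tags in all, and none of them overlapped the cluster.

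At another pair of places the forelimb tags lay directly beside the cluster. On chromosome 16 (17222307 to 17222459, plus strand) 33 C2C12 tags overlapped 1 forelimb tag, and 71 of the 72 forelimb tags within 1000 nt lay within 100 nt. On chromosome 10 (104675511 to 104675610, plus strand) 27 C2C12 tags overlapped 2 forelimb tags, and all 49 forelimb tags of the flanks lay within 100 nt. At these sites the forelimb tags lay no more than 100 nt from a cluster that the rule counts as C2C12-only. The cluster with the busiest flanks, on chromosome 17 (39985548 to 39985608, plus strand, 14 C2C12 tags and 1 forelimb tag), had 2074 forelimb and 1214 C2C12 tags within 1000 nt.

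At the other end, 117 clusters (14.0%) had no forelimb tag within 10000 nt on the strand, against 40 (3.40%) of the other clusters. Of these, 101 also had 0 forelimb tags at the cluster itself. Among clusters wider than 40 nt, 74 (9.49%) had no forelimb tag in that range. The largest of these held 22 to 24 C2C12 tags. On chromosome 19 (17297742 to 17297935, plus strand) 24 tags, 17, 12 and 3 by run, stood in a neighbourhood of 63 more C2C12 tags within 1000 nt. On chromosome 2 (73403984 to 73404149, minus strand) 22 tags, 17, 9 and 9 by run, had 69 more C2C12 tags around them. These stretches carried many C2C12 tags with no forelimb tag over the whole range, so the contrast covered more than a single site.

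Some C2C12-only clusters lay side by side. Another C2C12-only cluster lay within 1000 nt on the strand of 332 of them (39.7%). A cluster that forelimb shared lay within 1000 nt of 306 (36.6%). Of the 1178 other clusters, 679 (57.6%) had another of their own kind within 1000 nt and 369 (31.3%) had a C2C12-only cluster there. A C2C12-only cluster thus lay near C2C12-only clusters more often than near the others, and a cluster that forelimb shared less often. Shares of a cluster's own kind are drawn from sets of 837 and 1178 clusters and are not compared. Joined over gaps of up to 10000 nt, the 837 clusters formed 540 loci. Of these, 384 held 1 cluster and 156 held 2 or more, with 453 clusters in all. A locus may be 1 transcript or several, since no annotation was used.

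The 5 loci with the most C2C12-only clusters held 8 to 10 each. A stretch of chromosome 15 (77593380 to 77603872, minus strand) held 10 such clusters with 186 C2C12 tags, 1 further cluster that forelimb shared, and no forelimb tag in any of the 10. Over the whole stretch there were 288 C2C12 tags and 16 forelimb tags, 0, 1 and 3 in the WT and 1, 5 and 6 in the ΔE2 libraries. Its largest cluster (77593648 to 77593763) had 32 tags, 19, 15 and 10 by run, and a cluster at 77599231 to 77599480 had 18, 4 and 0. The stretch itself was poor in forelimb tags in both genotypes, but denser coverage adjoined it: 9 of the 10 clusters had 247 to 254 forelimb tags within 10000 nt on the strand, against 672 to 736 of C2C12.

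The other loci were mixed. On chromosome 10 (80859043 to 80867712, minus strand) 10 C2C12-only clusters with 156 tags stood among 7 that forelimb shared, and the stretch had 451 C2C12 and 59 forelimb tags, the latter 6, 13 and 26 in WT and 8, 2 and 4 in ΔE2. On chromosome 1 (72904584 to 72910592, minus strand) 8 with 140 tags stood among 6 others, with 627 C2C12 and 51 forelimb tags over the stretch. The cluster of 63 tags just outside the rule lies in this stretch, and the C2C12-only clusters at 72904584 to 72904785 and 72904792 to 72904916 are only 6 nt apart. Dense C2C12 coverage was broken there into neighbouring clusters, some of which met the rule and some of which did not.

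On chromosome X (93359092 to 93363780, plus strand) 8 C2C12-only clusters with 121 tags stood beside 3 others, with 281 C2C12 and 24 forelimb tags, and 6 of the 8 had no forelimb tag. On chromosome 15 (76003104 to 76010250, minus strand) 8 with 111 tags stood beside 1 other, with 403 C2C12 and 42 forelimb tags, and 200 to 215 forelimb tags lay within 10000 nt of each. In each of the 5 loci forelimb tags came from both genotypes, and C2C12 tags outnumbered them by more than the ratio of the total tags. The loci were picked for holding the most C2C12-only clusters, so this excess is partly set by the choice.

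The rule set no limit on width, but it counts overlapping forelimb tags, so a narrow cluster meets it more easily than a wide one. The share of C2C12-only clusters by width is therefore partly set by the rule. The C2C12-only clusters had a median width of 109 nt, from 29 to 366 nt, and the others 133 nt, from 35 to 2198 nt. Of the 67 C2C12 clusters up to 40 nt wide, 57 (85.1%) were C2C12-only, against 41.5% of all clusters and 20.2% (101 of 499) of those over 160 nt. The limit of 40 nt was chosen after the values were seen. Only 5 of the 57 narrow clusters (8.77%, interval 3.81 to 18.9%) had a forelimb tag within 1000 nt, and 12 (21.1%) had another C2C12 tag there. For 41 to 80 nt the share with a forelimb tag nearby was 65.1%, for 81 to 120 nt 80.8%, for 121 to 160 nt 78.4% and over 160 nt 82.2%. Of the 57, 44 had no tag of either material within 1000 nt, against 17 of the 780 wider ones. The other 10 narrow clusters, which forelimb shared, had a forelimb tag within 1000 nt at 5 and another C2C12 tag at 6.

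The molecules of the narrow clusters differed in make-up, whether forelimb shared them or not. On average 30.2% of their tags carried the barcode AAAAA, which 2.83% of all C2C12 tags carried, against 4.01% in clusters of 41 to 80 nt and under 1% in wider ones. There were 30 C2C12-only clusters in which at least 50% of tags had this barcode, and 20 of them were 40 nt wide or less. Their tags were also shorter, with a median of 33.3% at the full 30 nt. The third run gave 33.3% of their tags, against 13.8% of all deposited tags. The 10 narrow clusters that forelimb shared had 18.1% of tags with AAAAA on average, a median of 35.4% at the full length and 30.4% of their tags from the third run, so these traits go with narrow clusters and are not particular to the C2C12-only set. Tags per distinct position had a median of 1.67 in the narrow C2C12-only clusters and 1.04 in the 10 that forelimb shared, so this trait did differ between them. In clusters of 41 to 80 nt the medians were 1.08 and 1.1. The part of barcode, run, tag length and shared positions in the narrow clusters was not tested. The counts given above include the narrow clusters, of which 14 had a forelimb tag within 10000 nt. Without them, 77.3% (603 of 780) of the C2C12-only clusters had a forelimb tag within 1000 nt.

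**Figure D4:**
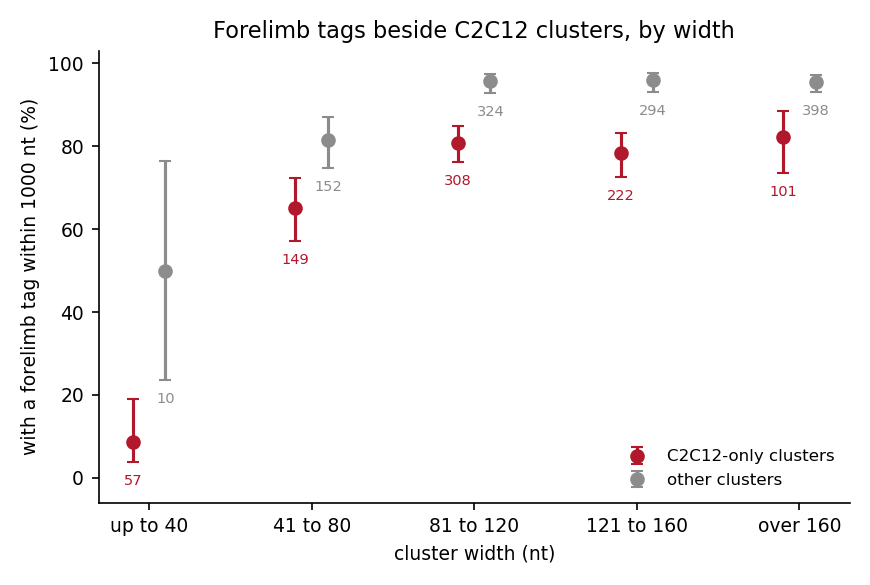
Share of clusters with a forelimb tag within 1000 nt on the strand (percent, vertical axis) by cluster width (nt, horizontal axis), for C2C12-only and other C2C12 clusters; bars are 95% Wilson intervals and the numbers count clusters. The narrowest C2C12-only class stands apart at 8.77%, and the wider ones lie between 65.1% and 82.2%.

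In C2C12, 754 of the 837 clusters (90.1%) had tags in all 3 runs, 80 in 2 and 3 in 1 run, close to the 92.2% of the other clusters in all runs. Since runs share molecules, the stricter count is of clusters with a molecule in each run that no other run holds, which 380 (45.4%) of the C2C12-only clusters and 54.1% of the others had. At least 3 tags in each run were found for 361 (43.1%) and 60.4%. Fewer tags per cluster go with these lower shares. Without the first run, which holds 62.0% of the deposited tags, the count of C2C12-only clusters dropped to 160, the share of all clusters to 28.4%.

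The C2C12-only clusters were found on both strands alike, 393 (47.0%) on the plus strand against 46.5% of the others. Chromosomes 15 and 11 held the most, 77 and 76, which was 48.4% and 41.8% of their C2C12 clusters, against 41.5% of all clusters. On chromosomes 1 and 14 the share was slightly higher than on chromosome 15, at 49.1% and 48.9%. The share was lower on chromosome 8, at 25.8% (24 of 93), and on chromosome 19, at 33.3%. Of only 11 C2C12 clusters on the mitochondrial genome, 7 (63.6%, against 41.5% of all clusters) were C2C12-only, 6 of them on the plus strand. The largest of these (3851 to 3913) had 23 C2C12 tags and 1 forelimb tag, and those from 6543 to 6690, 7585 to 7695 and 8005 to 8145 had 18, 11 and 11 against 0. Forelimb tags on the opposite strand overlapped 4 of the 837 C2C12-only clusters (0.478%) and 7 of the 1178 others (0.594%), so the shares were alike. At the C2C12-only cluster on chromosome 6 (124867881 to 124867956, minus strand, 10 C2C12 tags) there were 19 such tags.

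The authors' RNA-seq table of cassette exons, which compares WT and Mbnl3 mutant forelimb, covers 98 events in 84 genes, and 2 of the 837 C2C12-only clusters lay within an event on its strand, as did 1 of the 1178 others. In Clta, the gene of clathrin light chain A, a coat protein of endocytic vesicles, the cluster spanned 44045364 to 44045479 on the plus strand of chromosome 4 (116 nt). It held 16 C2C12 tags, 15, 4 and 1 by run, and 0 forelimb tags. The event (44043087 to 44045725) had 36 C2C12 tags and 5 forelimb tags over its length, 4 of them from WT replicate 3 and 1 from ΔE2 replicate 1. Reading the numbers in the event's name as exon edges, the cluster falls in the downstream exon of 453 nt (44045273 to 44045725), 91 nt after its start and 246 nt before its end, and not in the cassette exon of 36 nt. In the authors' deposited table, inclusion of that exon was 96.5% in WT and 25.8% in the knockout column, with an adjusted p of 1.37e-12 from group totals that hold no replicate spread. It rests on 50.7 WT and 183 knockout junction tags, and in WT the authors' deposited table lists 0 tags for one inclusion junction and 49.8 for the other. The cluster was measured in C2C12 and the splicing in forelimb, so the cluster and the exon were not measured in the same cells.

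The other cluster lay in Mbnl1, the muscleblind gene whose own transcripts are regulated by muscleblind proteins. It spanned 60332909 to 60332997 on the plus strand of chromosome 3 (89 nt), with 11 C2C12 tags, 10, 4 and 2 by run, and 1 forelimb tag, from WT replicate 3. Across the event (60305186 to 60399685), which covers long introns, there were 272 C2C12 and 89 forelimb tags, the latter 8, 17 and 31 in WT and 11, 10 and 12 in ΔE2. The lengths of the flanking exons are not given separately, so the cluster may start as far as 168 nt after the end of the cassette exon of 223 nt or up to 162 nt before that end. The authors' deposited table gives 48.3% inclusion in WT and 63.7% in the knockout column, with an adjusted p of 0.0396. Forelimb tags of both genotypes thus lay elsewhere in this stretch, with 11 forelimb and 49 C2C12 tags within 1000 nt of the cluster.

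Genotype was compared over the forelimb libraries. The deposited files of the ΔE2 libraries carry another number in their names than those of WT and C2C12, and its meaning is not given in the labels, so genotype and whatever that number marks cannot be told apart in this comparison. The few forelimb tags at the clusters, which the rule caps at 2 per cluster over all libraries, are given as a description with no test. They were 43, 85 and 182 in WT replicates 1 to 3, or 1214, 1147 and 1464 per 1000000 of the library. In ΔE2 they were 70 in replicate 1 and 80 in replicates 2 and 3 counted as 1 library, or 1040 and 1217 per 1000000. The groups overlap, with means of 1275 ± 167 per 1000000 (SD, n = 3) in WT and 1129 ± 125 (SD, n = 2) in ΔE2. The difference of -146 per 1000000 depended on single libraries: it was -51.7 without WT replicate 3, -57.9 without ΔE2 replicate 1 and -348 without ΔE2 replicate 3. In the 6 libraries as labelled it was -251.

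Forelimb tags within 1000 nt of the clusters were 52890, 41782 and 37841 per 1000000 in WT and 34974 and 34931 in ΔE2. Every WT library lay above both ΔE2 values. Means were 44171 ± 7804 (SD, n = 3) and 34952 ± 30.4 (SD, n = 2), a difference of -9219 per 1000000 (two-sided exact permutation test, p = 0.2), which a design of 3 against 2 cannot take past the threshold of 0.05. Without WT replicate 1, the highest library, it was -4859. The 3 clusters with the most forelimb tags around them, on chromosomes 17, 3 and 6, weigh on these sums, and without them the difference was -12157 (exact permutation p = 0.1, the smallest possible). Around the other C2C12 clusters WT was also above ΔE2, at 41482, 42726 and 42242 against 35643 and 30747 per 1000000, so the order of the genotypes was not particular to the C2C12-only clusters. In C2C12 the same flanks held 49742 per 1000000.

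**Figure D5:**
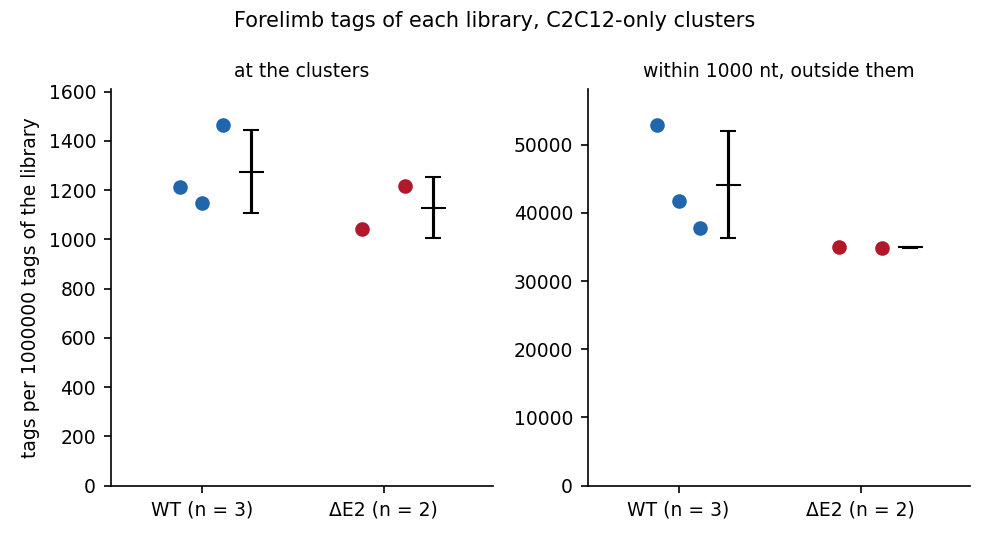
Forelimb tags per 1000000 at C2C12-only clusters and within 1000 nt of them (vertical axes), for each library of WT and ΔE2, with the mean and SD; ΔE2 replicates 2 and 3 are counted as 1 library. The groups overlap at the clusters, and the 3 WT libraries lie above both ΔE2 values in the flanks.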

How the data were processed

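Per the submitters' processing notes, the authors aligned the CLIP tags with Novoalign (version not given) and the RNA-seq reads with TopHat 1.3.2 and Bowtie, both to mm9. In the CLIP files each line is a tag. The score that the authors deposited with each tag is 0 throughout for C2C12 and has no stated meaning for forelimb, and it went unused. The authors' deposited exon table holds estimated counts of junction tags, summed per group over the replicates, an adjusted p-value and the change in inclusion, which was recomputed for 98 of 98 events. One of its headers names another muscleblind gene for the mutant, hence "knockout column".

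Tags were counted, merged and compared with matplotlib 3.10.9, scipy 1.17.1, pandas 2.3.3 and numpy 2.4.6 in Python 3.11.15; merging was tested on simulated tags. Coordinates are 1-based. Shares have 95% Wilson intervals, limits for a count of 0 are 3 counts, and both cover counting error only. The intervals treat clusters as independent, which neighbouring clusters are not. Libraries, labelled as biological replicates, were compared by exact permutation. The test planned for forelimb tags at the clusters is not reported, since the rule caps those tags. The clusters and lists were chosen with earlier results of these data known. Named clusters are the 15 with most C2C12 tags, those in events, those of the 5 fullest loci (in part), and the 3 largest just inside and just outside the rule; any further cluster was picked once its values were known. Planned counts for gene lists and for the muscleblind motif were not made, for want of mm9 sequence and gene models.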

Additional observations from a re-analysis of the deposited data

How the results depend on the processing

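Alternatives covered repeats, thresholds, libraries, overlap and distance; those without a C2C12 run, over 40 nt wide, with tags in each run or without the busiest flanks were chosen after seeing the data. The number of C2C12-only clusters, 837, became 1584 with every deposited row counted, 128 with a minimum of 20 tags, 503 with 0 forelimb tags and 160 without run 1. Their share of C2C12 clusters became 48.9% with every row, 39.2% with tags of 1 position counted once, 21.7% with a minimum of 20 tags, 25.0% with 0 and 53.1% with fewer than 5 forelimb tags, 48.7% with WT libraries only, 28.4% without run 1 and 37.6% without run 2. Leaving out each forelimb library gave shares of 42.4 to 50.2%, counts of 855 to 1012, and 72.4 to 73.4% with a forelimb tag within 1000 nt. That last share, 72.6%, became 76.3% with tags of 1 position counted once, 61.6% with 0 and 77.1% with fewer than 5 forelimb tags, 39.1% within 100 nt, 86.0% within 10000 nt, 66.3% without run 1 and 77.3% over 40 nt. The alternatives change which tags and clusters enter; other causes were not tested.

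No alternative turned the sign of a genotype difference. Leaving out each library gave -348 to -51.7 per 1000000 at the clusters and -12384 to -4859 near them. Replicate numbers did not pair the libraries (correlations of -0.214, -0.0453 and -0.183 between deviations of same-numbered libraries over 627 clusters), and the replicate block gave -251 at the clusters and -8984 near them (exact sign-flip permutation p = 0.25 for the latter).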
